A study of Capra hircus with 6 samples.

Results

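Surface receptors and other hallmark genes of blood monocytes, together with TARM1, were examined in peripheral blood mononuclear cells (PBMC, a fraction of lymphocytes and monocytes) of goat kids (Capra hircus). They were picked by symbol from 9 names, of which 8 are among the 24779 genes of the count table: CD14, CSF1R, CLEC4E, CD36, MSR1, VCAN, TREM1 and TARM1. The ninth, CD163, the hemoglobin scavenger receptor, was not analysed here. TARM1 joined the monocyte genes because of its difference between the feeds in these same counts. Over the 6 libraries its p in edgeR was the smallest of the 8 genes. The other names were chosen with their levels in these libraries known. The differences between feeds below are therefore a description and carry no test of their own.

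The study compared kids fed milk replacer (the test feed, 3 libraries) with kids fed doe's milk (the control feed, 3 libraries). The labels call the libraries biological replicates and give no age, sex, breed or duration of feeding. By the labels, total RNA of unsorted PBMC was sequenced in every library. In bulk RNA, fewer monocytes and less RNA of a gene per monocyte cannot be told apart.

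Monocytes carry receptors that read microbes, dead cells and modified lipids and that set how strongly the cells respond. CD14 hands bacterial lipopolysaccharide to TLR4, CLEC4E (Mincle) is a C-type lectin that binds glycolipids of mycobacteria and signals through the ITAM-bearing Fc receptor gamma chain FCER1G, and TREM1 amplifies inflammatory signals through the ITAM adaptor TYROBP. In mice, TARM1 is an immunoglobulin-like receptor of myeloid cells, neutrophils included, that also pairs with the Fc receptor gamma chain. CSF1R is the receptor for CSF1 and IL-34, on which monocytes and macrophages depend. CD36 and MSR1 are scavenger receptors for oxidized lipoproteins, and VCAN is a matrix proteoglycan that classical monocytes of humans transcribe abundantly and secrete, so it is not a receptor.

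The libraries were of 2 kinds, which cross the feeds, and each result is given for the kinds apart. In replacer-milk library 1 and doe-milk libraries 1 and 2, counts were led by blood cell transcripts, and the Spearman correlation of counts with the genomic span of the gene was 0.374 to 0.387 across genes. In replacer-milk libraries 2 and 3 and doe-milk library 3, the counts followed gene span, introns included, with correlations of 0.893 to 0.896 across genes. Markers of the labelled cells were present in the first kind, where the B cell receptor component CD79B had 637 CPM (counts scaled to a library total of 1000000) in replacer-milk library 1 and 625 and 506 CPM in doe-milk libraries 1 and 2. In the second kind CD79B had 0.553 and 0.562 CPM in replacer-milk libraries 2 and 3 and 4.08 CPM in doe-milk library 3, so the PBMC label was not borne out by this marker there. T cell markers likewise summed to 290.1 and 301 CPM in replacer-milk libraries 2 and 3 and to 181 CPM in doe-milk library 3, well below the first kind. Totals were 51893874, 27129143 and 26690109 counts in replacer-milk libraries 1 to 3 and 48063350, 57204363 and 25023210 in doe-milk libraries 1 to 3. Only replacer-milk library 1 and doe-milk libraries 1 and 2 therefore speak to the level of transcripts, and 1 library stands for replacer milk in that comparison.

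**Figure D1:**
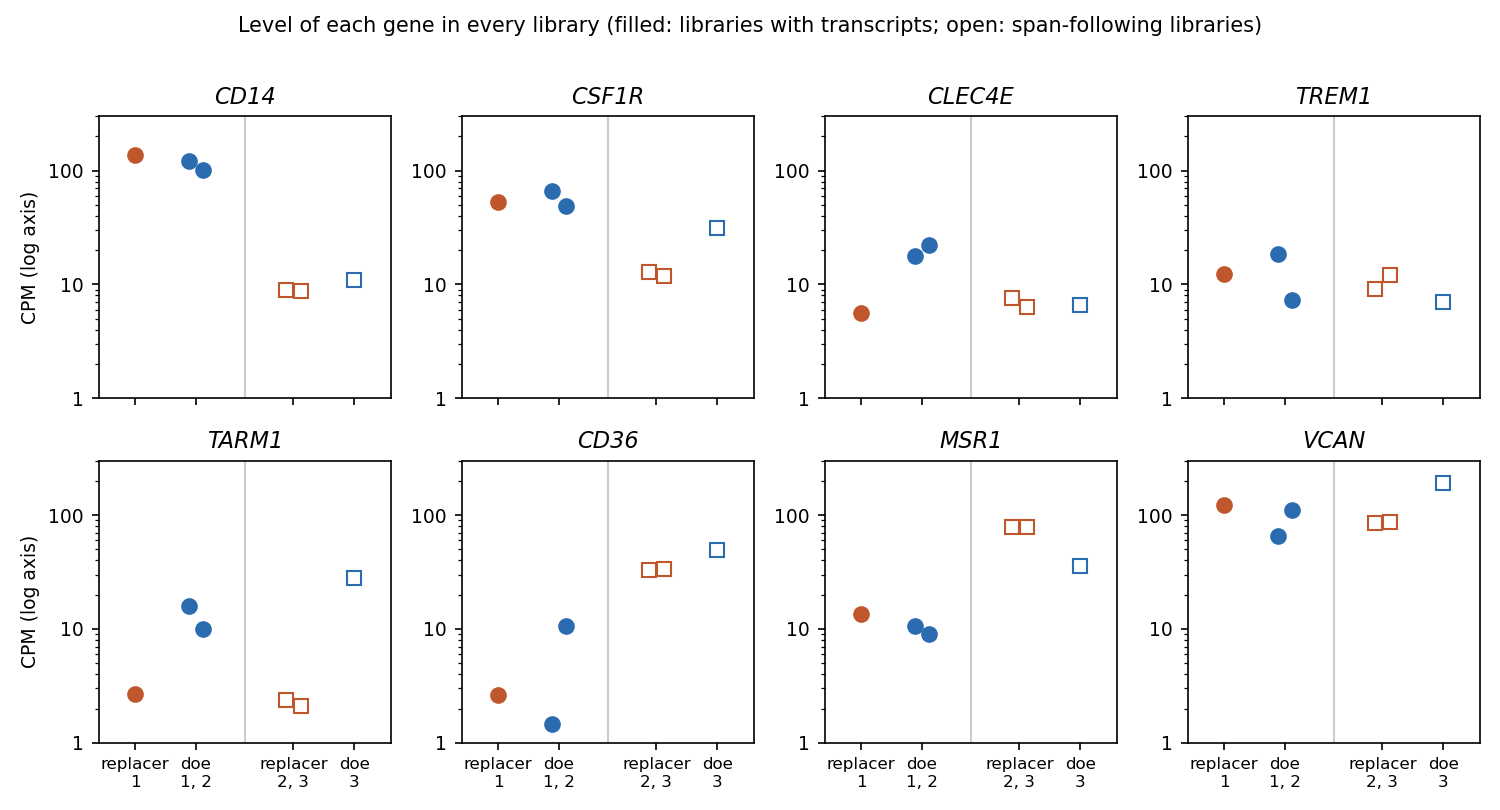
Level of the 8 genes in every library, in CPM on a log axis; filled circles are libraries with transcripts and open squares span-following libraries, with replacer milk in orange and doe milk in blue. CLEC4E stood at 5.63 CPM in replacer-milk library 1 and at 17.9 and 22.01 CPM in doe-milk libraries 1 and 2, and TARM1 was below 3 CPM in each replacer-milk library and at 9.999 CPM or more in each doe-milk library.

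In the libraries with transcripts, TARM1 and CLEC4E lay lower in the replacer-milk library than in either doe-milk library. CD14, MSR1 and VCAN were higher there than in both, at 1.11 to 1.89 times the doe-milk libraries in CPM. CSF1R, CD36 and TREM1 lay between the doe-milk libraries. Over the 8 genes the median log2 fold change (replacer milk minus doe milk, after TMM scaling of the libraries) was −0.20, and over all 17356 genes tested it was −0.0057. No gene of the 8 passed edgeR's quasi-likelihood test at an adjusted p of 0.05, where 0.0173% of all genes did. At an unadjusted p below 0.05 there were 2 of the 8, TARM1 and CLEC4E, against 5.35% of all genes. DESeq2 called the same 2, against 0.808% of all genes, and so did edgeR with no filter on low counts, against 0.42%. The rule that picked the genes used this contrast, and nothing is read from these counts.

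TARM1 stood at 2.698 CPM in replacer-milk library 1 (95% Wilson interval 2.29 to 3.18, from 140 counts), against 16 CPM (14.9 to 17.2, from 769 counts) and 9.999 CPM (9.21 to 10.9, from 572 counts) in doe-milk libraries 1 and 2. The intervals describe counting error alone. The groups did not overlap, and the replacer-milk library lay 5.93 and 3.71 times below the doe-milk libraries, which differed 1.60 times from each other. The fitted log2 fold change was −2.38 (SE 0.42), lower than that of all but 1.25% of the genes tested. Leaving out doe-milk library 1 gave −2.01 and leaving out library 2 gave −2.68, values with no test.

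CLEC4E stood at 5.63 CPM in replacer-milk library 1 (5.02 to 6.31, from 292 counts), against 17.9 CPM (16.7 to 19.1, from 859 counts) and 22.01 CPM (20.8 to 23.3, from 1259 counts) in doe-milk libraries 1 and 2. It lay 3.18 and 3.91 times below them, and they differed 1.23 times from each other. The log2 fold change was −1.94 (SE 0.29), within the lowest 2.01% of genes tested. In CPM, TARM1 and CLEC4E were the 2 of 8 genes lower than doe-milk libraries 1 and 2 alike. That held for 23.8% of all genes, or 33.1% after TMM scaling.

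TREM1, the third activating receptor, did not separate the feeds. It stood at 12.3 CPM in replacer-milk library 1, against 18.4 and 7.22 CPM in doe-milk libraries 1 and 2. The doe-milk libraries differed 2.54 times from each other, more than either differed from the replacer-milk library, and the log2 fold change was −0.16 (SE 0.64). Its sign followed the doe-milk library left out, at 0.65 without library 1 and −0.69 without library 2.

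CD14 was the most counted of the 8 genes in replacer-milk library 1, at 137 CPM, against 120.5 and 101 CPM in doe-milk libraries 1 and 2. CSF1R, the other lineage receptor, stood at 53.2 CPM, against 66.7 and 48.8 CPM. CD14 was thus slightly above both controls, with a log2 fold change of 0.20 (SE 0.21), and CSF1R lay between them at −0.23 (SE 0.26).

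The scavenger receptor MSR1 stood at 13.4 CPM in replacer-milk library 1, against 10.7 and 9.09 CPM in doe-milk libraries 1 and 2, a log2 fold change of 0.33 (SE 0.28). VCAN stood at 124 CPM, against 65.5 and 112 CPM (log2 fold change 0.37, SE 0.36), so the replacer-milk library was close to doe-milk library 2 and above library 1. CD14, MSR1 and VCAN were the 3 of 8 genes above both doe-milk libraries, as were 46.9% of all genes in CPM, or 34.6% after TMM scaling. All 3 stayed above both after TMM scaling, where VCAN had 118 CPM against 67.1 and 115 CPM.

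CD36 was the most variable of the 8 genes between the doe-milk libraries. It stood at 2.64 CPM in replacer-milk library 1 (from 137 counts), against 1.46 CPM (from 70 counts) and 10.7 CPM (from 613 counts) in doe-milk libraries 1 and 2, which differed 7.36 times. Its log2 fold change of −1.32 (SE 1.56) rested on doe-milk library 2, since it was 0.74 without that library and −2.14 without doe-milk library 1. CD36 is also a protein of platelets, and platelet markers differed between the doe-milk libraries the same way. The platelet markers, 11 of 12 of which are in the table, summed to 1278 CPM in replacer-milk library 1, against 1199 and 1669 CPM in doe-milk libraries 1 and 2, and 0 of the 11 were under 1 CPM in all 3 libraries. All of the 11 but TREML1 were higher in doe-milk library 2 than in library 1. In edgeR 0 of the 11 passed, 3 had an unadjusted p below 0.05, all lower, and DESeq2 called 0. The platelet tubulin TUBB1 stood at 555 CPM, against 406 and 648 CPM, a log2 fold change of −0.039. Of the 11 platelet markers, 10 had negative and 1 a positive fold change, with a median of −0.35. In CPM 7 of them lay below both doe-milk libraries and 0 above both, against 23.8% and 46.9% of all genes. Their part in the CD36 values was not tested.

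**Figure D2:**
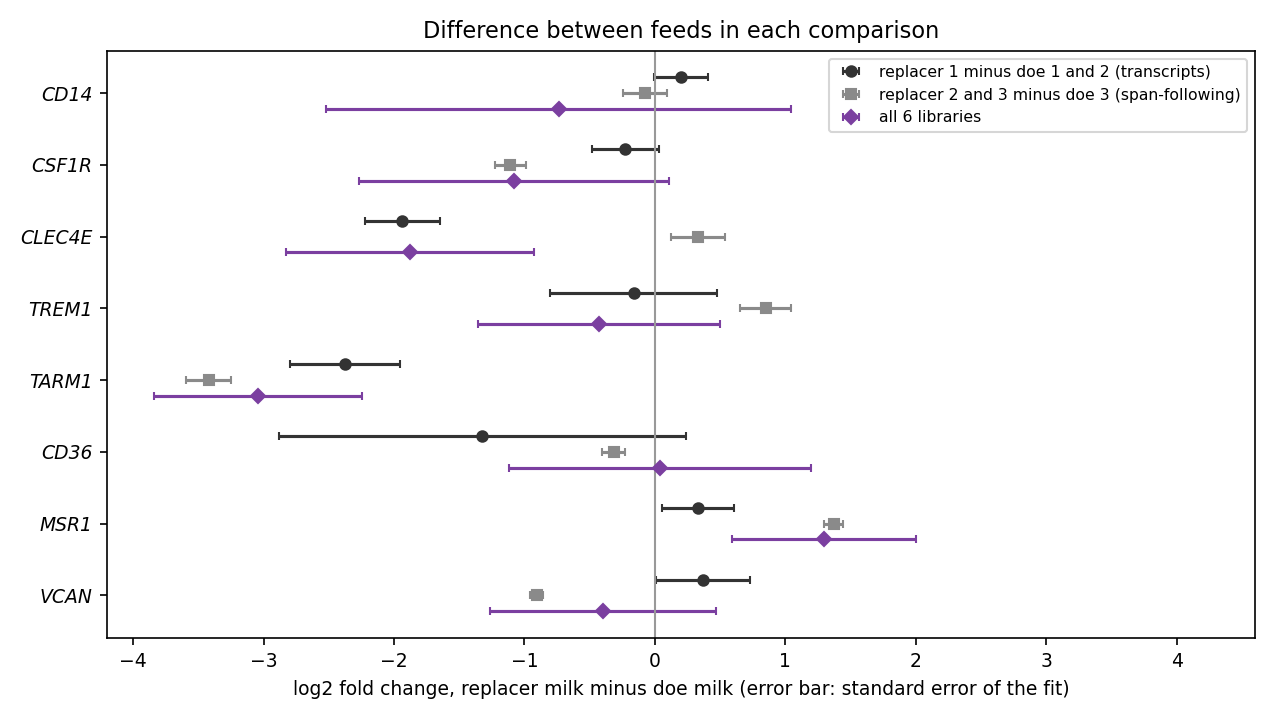
Log2 fold change of each gene, replacer milk minus doe milk, with the standard error of the fit as a bar, in the libraries with transcripts (circles), the span-following libraries (squares) and all 6 libraries (diamonds). TARM1 lies at −2.38, −3.42 and −3.04 in these, and CLEC4E at −1.94, 0.33 and −1.88.

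The summed level of the other monocyte markers was close in the 3 libraries. Of 20 further monocyte genes, 12 are in the table, and they summed to 893 CPM in replacer-milk library 1, against 887 and 850 CPM in doe-milk libraries 1 and 2. Of the 11 tested, 8 had negative and 3 positive fold changes, with a median of −0.18. None passed in edgeR in the libraries with transcripts, none had an unadjusted p below 0.05, and DESeq2 called 0. FCN1, the monocyte ficolin, stood at 358 CPM, against 255 and 267 CPM, and CTSS, a lysosomal protease, at 258 CPM, against 312 and 293 CPM. LST1, a small transmembrane protein of leukocytes, was at 10.5 CPM, against 32.0 and 13.5 CPM. CSTA was under 1 CPM in all 3 libraries.

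Neutrophil markers, which can mark granulocytes carried along with PBMC, were mostly lower in replacer-milk library 1, as TARM1 and CLEC4E were. Of 21 neutrophil genes 15 are in the table, and they summed to 399 CPM in replacer-milk library 1, against 960 and 576 CPM in doe-milk libraries 1 and 2. Of the 14 tested, 10 lay below both doe-milk libraries in CPM and 1 above both, against 23.8% and 46.9% of all genes. The gene above both was LTF, at 10.1 CPM, against 3.16 and 7.62 CPM. The median log2 fold change of the 14 was −0.65. In edgeR 0 passed, 2 had an unadjusted p below 0.05, both lower, and DESeq2 called 1. The chemokine receptor CXCR2 stood at 16.6 CPM, against 163 and 58.8 CPM, and CXCR1 at 3.89 CPM, against 119 and 28.8 CPM. S100A9, shared by neutrophils and monocytes, was at 107 CPM, against 206 and 157 CPM, while its partner S100A8 was at 104 CPM, against 106 and 85.9 CPM. The granule genes MPO, AZU1, MMP8 and OLFM4 were under 1 CPM in all 3 libraries. From doe-milk library 1 to library 2 the neutrophil sum fell, as TARM1 did from 16 to 9.999 CPM, while CLEC4E rose from 17.9 to 22.01 CPM. The part of neutrophils in the TARM1 and CLEC4E values was not tested.

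Markers of the other blood cells were measured beside them. B cell markers summed to 2599 CPM in replacer-milk library 1, against 2353 and 2259 CPM in doe-milk libraries 1 and 2, T cell markers to 1942 CPM, against 1879 and 1565 CPM, and NK cell markers to 316 CPM, against 258 and 420.2 CPM. Dendritic cell markers summed to 141 CPM, against 208 and 143 CPM, and had a median log2 fold change of −1.02 over 8 genes, 7 of them negative. Erythroid genes summed to 617 CPM, against 1622 and 1800 CPM, nearly all of it the beta globin HBBC. In edgeR 0 genes of these 5 lists passed; IL3RA, FCRLA, GZMA and HBBC had an unadjusted p below 0.05, all lower, and DESeq2 called 1 erythroid gene and 0 of the others. Their part in the receptor values was not tested.

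Both adaptors of these receptors lay between the doe-milk libraries in CPM. After TMM scaling, which the fold changes use, both lay below the doe-milk libraries, as did 33.1% of all genes. FCER1G, the gamma chain that carries the signal of CLEC4E and, in mice, of TARM1, stood at 74.1 CPM in replacer-milk library 1, against 99.8 and 71.8 CPM in doe-milk libraries 1 and 2 (log2 fold change −0.32, SE 0.26). TYROBP, the adaptor of TREM1, stood at 115 CPM, against 154 and 109 CPM (−0.30, SE 0.26). The kinase SYK, next in this pathway, was at 325 CPM, against 218 and 272 CPM, and its partner CARD9 at 56.0 CPM, against 57.0 and 35.8 CPM. Of 21 genes of ITAM adaptors and signalling, all tested, 0 passed in edgeR and DESeq2 called 0; 1 had an unadjusted p below 0.05, and the median was 0.012. These adaptors and the other single genes named here for their roles were chosen with their values known.

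The relatives of CLEC4E gave other values. CLEC4D (MCL), a C-type lectin that forms complexes with Mincle in mice and rats, stood at 17.0 CPM in replacer-milk library 1, against 10.3 and 8.23 CPM in doe-milk libraries 1 and 2 (log2 fold change 0.77, SE 0.28). CLEC4E and CLEC4D thus lay on opposite sides of the doe-milk libraries. Of 11 further C-type lectin receptors tested, CLEC4D among them, 6 had negative and 5 positive fold changes with a median of −0.017, 0 passed in edgeR, 1 had an unadjusted p below 0.05, and DESeq2 called 0.

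Next to TARM1, as RefSeq lists the genes of ARS1.2, lies OSCAR, another immunoglobulin-like receptor that pairs with the Fc receptor gamma chain. OSCAR stood at 1.77 CPM in replacer-milk library 1 (92 counts), against 7.41 CPM (356 counts) and 1.64 CPM (94 counts) in doe-milk libraries 1 and 2, so that doe-milk library 1 stood apart from the other 2 libraries. NDUFA3, a respiratory chain subunit on the same side, was at 30.5 CPM, against 35.2 and 28.9 CPM. On the other side, 6 genes listed only by a LOC number separate TARM1 from NLRP13, at 0.52 CPM, against 0.27 and 0.58 CPM, and NLRP8 follows, at 1.77 CPM, against 1.52 and 1.14 CPM. Of 27 genes listed for the leukocyte receptor complex, the gene cluster around TARM1 in other mammals, 10 are in the table under these symbols. None of the 10 passed in edgeR, 0 had an unadjusted p below 0.05, DESeq2 called 0, and the median was −0.098. Reads of near-identical receptor copies in this cluster can be shared between genes.

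The TREM family and the partners of TREM1, 7 of 13 listed genes, had a median log2 fold change of −0.30, and 0 passed in edgeR while 1 had an unadjusted p below 0.05. That gene was TREML1, the platelet member of the family, at 14.9 CPM, against 30.1 and 26.9 CPM. PGLYRP1, a peptidoglycan-binding granule protein reported as a TREM1 ligand in humans, was at 26.3 CPM, against 28.4 and 32.3 CPM. DESeq2 called 0 of this list.

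The partners of CD14 were evenly split in direction. LY96 (MD-2), which binds lipopolysaccharide beside TLR4, was at 30.3 CPM in replacer-milk library 1, against 30.1 and 30.6 CPM in doe-milk libraries 1 and 2. TLR4 itself was at 25.3 CPM, against 34.4 and 27.3 CPM, and the adaptor MYD88 at 59.5 CPM, against 108 and 73.6 CPM. Of 18 genes of this pathway, 9 had negative and 9 positive fold changes with a median of −0.011; 0 passed in edgeR, 1 had an unadjusted p below 0.05, and DESeq2 called 0. LBP, the plasma carrier of lipopolysaccharide made by the liver, was under 1 CPM in all 3 libraries.

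Around CSF1R, the ligand CSF1 stood at 4.72 CPM in replacer-milk library 1, against 20.4 and 6.92 CPM in doe-milk libraries 1 and 2, and the ligand IL34 was under 1 CPM in all 3. SPI1 (PU.1), the transcription factor that drives CSF1R in myeloid cells, was at 199.8 CPM, against 233 and 206 CPM. IRF8, a transcription factor of monocytes, dendritic cells and B cells, was higher, at 134 CPM, against 68.2 and 65.5 CPM (log2 fold change 0.89, SE 0.19), and CEBPA was lower, at 13.1 CPM, against 20.5 and 18.9 CPM. These were the 2 of 18 genes with an unadjusted p below 0.05; 0 passed in edgeR, DESeq2 called 0, and the median was −0.20.

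Of 20 scavenger receptors and partners of CD163 and CD36, 12 had negative and 8 positive fold changes, with a median of −0.17. In edgeR 0 passed and 2 had an unadjusted p below 0.05, both lower, and DESeq2 called 1. SCARA5, a ferritin receptor, was at 4.01 CPM in replacer-milk library 1, against 15.5 and 11.6 CPM in doe-milk libraries 1 and 2, and the iron exporter SLC40A1 at 81.4 CPM, against 108 and 143 CPM. HMOX1, which degrades the heme taken up through CD163, stood at 9.31 CPM, against 8.24 and 7.62 CPM. MARCO, the macrophage receptor closest in kind to MSR1, was under 1 CPM in all 3.

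Among the matrix genes listed with VCAN, 14 of 20 were tested, with a median of −0.19. In edgeR 0 passed, 1 had an unadjusted p below 0.05, and DESeq2 called 0. The hyaluronan receptor CD44, a binding partner of versican, was at 202 CPM, against 142 and 159 CPM, and the protease inhibitor TIMP1 at 532 CPM, against 745 and 867 CPM. TNFAIP6 (TSG-6), a hyaluronan-binding protein induced in inflammation, was at 0.655 CPM, against 27.2 and 6.78 CPM.

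**Figure D3:**
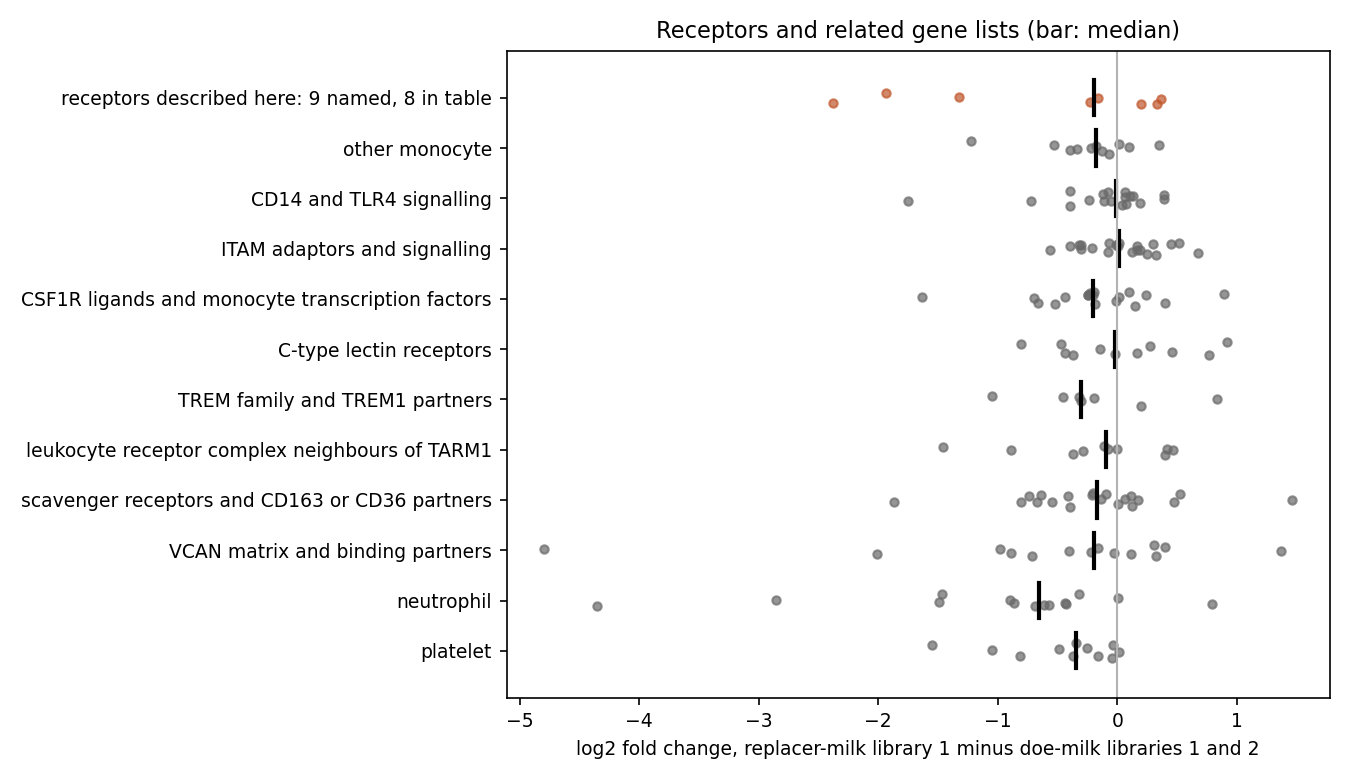
Log2 fold change of each tested gene, replacer-milk library 1 minus doe-milk libraries 1 and 2, with the list median as a bar. The 8 genes described here, labelled receptors although VCAN is not one, are drawn with the related lists. Neutrophil and platelet markers are included and other blood cell markers not drawn. Of those not drawn, dendritic cell markers had a median of −1.02. The median is −0.20 for the 8 genes, −0.65 for neutrophil markers and 0.012 for ITAM adaptors and signalling.

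In the span-following libraries the 8 genes are shown apart, because counts there rose with gene span and the level per length is the comparable quantity. There 4 of 8 genes fitted lower in replacer milk and 2 higher at an edgeR adjusted p below 0.05, as did 36.5% and 36.7% of all genes (73.2% in either direction). With library totals in place of TMM, the split over all genes was 6416 higher and 10237 lower, in place of 8158 and 8108. Replacer-milk libraries 2 and 3 differed little from each other, and doe-milk library 3 has no replicate. Between replacer-milk libraries 2 and 3, chi-square over degrees of freedom was 2.47 for the 8 genes and 2.78 over all genes, where doe-milk libraries 1 and 2 gave 89.9. These calls are therefore not read as an effect of feed.

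TARM1 was the gene of the 8 with the widest gap between these libraries. It had 2.36 and 2.10 CPM in replacer-milk libraries 2 and 3 (64 and 56 counts), against 28.3 CPM in doe-milk library 3 (707 counts). Per kb of span that was 0.42 and 0.37 times the median autosomal protein-coding gene in the replacer-milk libraries, against 4.25 times in doe-milk library 3. In doe-milk library 3, 94.7% of 19057 such genes had fewer counts per kb than TARM1, a place in the order that 9.61% and 7.11% gave in the replacer-milk libraries. The neighbour OSCAR went the same way, with 12.1 and 12.7 counts per kb in replacer-milk libraries 2 and 3, against 33.7 in doe-milk library 3, and NDUFA3 beyond it the other way, with 160.2 and 165 counts per kb, against 71.0.

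CD14 was about equal per length in the 3 span-following libraries, at 3.97 and 3.85 times the median gene in replacer-milk libraries 2 and 3 and 4.09 times in doe-milk library 3. CSF1R was at 0.62 and 0.57 times, against 1.28 times, and VCAN at 1.09 and 1.11 times, against 2.04 times, so both were lower in replacer milk. MSR1 was higher, at 1.54 and 1.55 times in replacer-milk libraries 2 and 3, against 0.59 times in doe-milk library 3. CLEC4E, at 0.95 and 0.79 times, against 0.69 times, and TREM1, at 0.96 and 1.29 times, against 0.62 times, lay within 1.5 times of the median gene or below it, with 164 to 325 counts behind each value of these 2 genes. CD36 was at 0.52 times in each replacer-milk library, against 0.64 times in doe-milk library 3. The log2 fold change of CLEC4E in the span-following libraries was 0.33 (SE 0.21). These libraries do not speak to the level of transcripts, so this value is not set against the CLEC4E level in replacer-milk library 1.

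**Figure D4:**
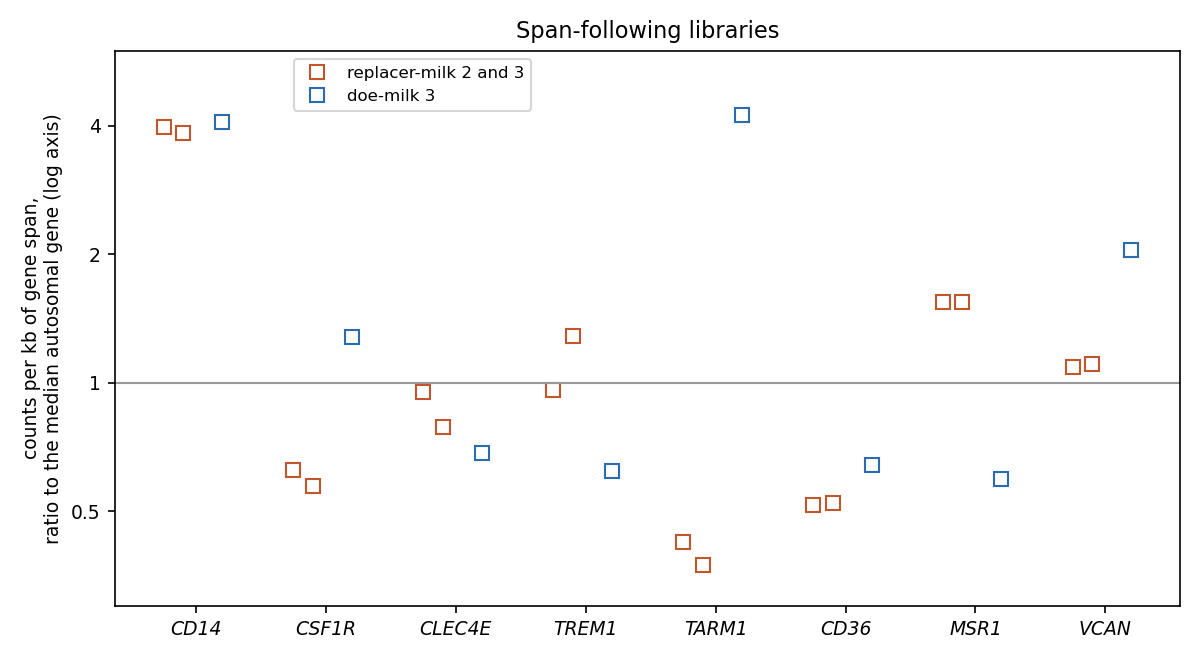
Counts per kb of gene span in the span-following libraries, as a ratio to the median autosomal protein-coding gene of the same library, on a log axis, with replacer milk in orange and doe milk in blue. TARM1 lies at 0.42 and 0.37 in replacer milk and at 4.25 in doe milk, and CD14 near 4 in all 3 libraries.

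Over all 6 libraries, the comparison the design names, TARM1 was the only gene of the 8 whose feeds did not overlap. Its 3 replacer-milk libraries, at 2.698, 2.36 and 2.10 CPM, lay below its 3 doe-milk libraries, at 16, 9.999 and 28.3 CPM, as was the case for 1.18% of the 21431 genes tested (3.3% with either feed lower). It averaged 2.39 ± 0.301 CPM in replacer milk and 18.1 ± 9.30 CPM in doe milk (SD, n = 3 each), and the log2 fold change was −3.04 (SE 0.80). These means pool both kinds of library, and replacer-milk libraries 2 and 3 differed little from each other. The SDs are thus not a spread of like replicates. TARM1 was chosen for this contrast, so these values add no evidence for it. Of the 8 genes 0 passed in edgeR, against 0% of all genes, TARM1, 1 of the 8, had an unadjusted p below 0.05, against 0.574% of all genes, and DESeq2 called 0 of the 8, against 0.0112% of all genes.

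For the other 7 genes the feeds overlapped, and for several the kind of library set the range. CD14 averaged 51.6 ± 74.1 CPM in replacer milk and 77.4 ± 58.4 CPM in doe milk (SD, n = 3 each), because its libraries with transcripts held 101 to 137 CPM and its span-following libraries 8.69 to 10.9 CPM. Its log2 fold change of −0.74 (SE 1.78) became −4.28 without replacer-milk library 1 and 0.032 with library kind as a term in the fit. CSF1R, at −1.08 (SE 1.19), became −2.97 without replacer-milk library 1. MSR1 and CD36 were instead higher in the span-following libraries, MSR1 at 36.0 to 79.2 CPM there, against 9.09 to 13.4 CPM in the libraries with transcripts, and CD36 at 33.3 to 49.3 CPM, against 1.46 to 10.7 CPM. CLEC4E, at −1.88 (SE 0.95), became −0.85 with library kind as a term.

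By likeness of profile over the 6 libraries, measured as the Euclidean distance between log2 CPM centred on each gene's mean among 16040 other genes with a symbol, the nearest gene to TARM1 was NAP1L5 at a distance of 1.40. FKBP14, TMEM158, KLC3 and ACKR4 followed at 1.53 to 1.71. TMEM158, for example, stood at 15.6, 13.3 and 11.7 CPM in replacer-milk libraries 1 to 3, against 46.6, 46.3 and 45.8 CPM in doe-milk libraries 1 to 3. Among the nearest genes to CD14 were LGALS3, FLOT2, LIN7C and WDR6, at distances of 0.201 to 0.255. LGALS3 (galectin-3) stood at 111, 7.22 and 6.97 CPM in replacer milk, against 108, 93.5 and 9.07 CPM in doe milk, so the likeness to CD14 is that of the 2 kinds of library. TARM1 had no neighbour as close as those of CD14.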

How the data were processed

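The deposited table holds the authors' raw counts for 24779 genes in 6 libraries, with 0 rows lacking a gene name. TRIzol RNA went into a library kit for Illumina sequencing (NEBNext Ultra II), per the labels' protocols. The submitters' processing notes name featureCounts 2.0.0, STAR 2.7.10a, fastp 0.22.0 and, for conversion and quality reports, MultiQC 1.12, FastQC 0.11.9 and bcl2fastq 2.19.0.316. The strand setting, build and annotation used for counting were not given in the sources, so reads of overlapping genes on opposite strands may be mixed, and coordinates are left out.

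CPM are counts over the library total. Gene span came from the RefSeq table of ARS1.2, which held 92.9% of the genes and all 8 described. Libraries with a Spearman correlation of counts with span above 0.6 are called span-following. After filterByExpr and TMM, edgeR 4.0.16 (R 4.3.3) ran its quasi-likelihood test with robust dispersions, two-sided, Benjamini-Hochberg adjusted over all genes tested, threshold 0.05. Standard errors are the log2 fold change over the square root of F. With 1 library on a side, that library is assumed to vary like the other side. The fits were tested on counts simulated in each comparison from a common mean profile with a fixed dispersion. Those counts lack the spread between these libraries and their kinds, so the test does not show how the fits behave with it. DESeq2 1.42.0 was an alternative, and figures used matplotlib 3.10.9. The labels call the libraries biological replicates without naming animals, so p-values measure the spread between these libraries, which may be technical.

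The genes, the related lists and the comparisons were chosen with earlier results of these data known. Text names the 8 genes, list genes past the threshold in a comparison (up to 4 per list, fewer in most; in the span-following libraries most genes pass) or, failing that, the 2 with the largest change at 5 CPM or more, the 5 nearest profiles of TARM1 and CD14 (1 of them is not reported here), and the 2 named neighbours on each side of TARM1. Other genes were named for their role with their values known.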

Additional observations from a re-analysis of the deposited data

How the results depend on the processing

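Over all 6 libraries, 0 genes passed in edgeR under RLE or upper quartile scaling, library totals, no filter, the replicate number as a block, and each library left out in turn (0 to 0), while 123 had an unadjusted p below 0.05, DESeq2 called 2 and library kind as a term, an alternative chosen after seeing the data, 1. With replacer-milk libraries 2 and 3 summed, also chosen after seeing the data, the count was 0. Whether replicate numbers pair the libraries cannot be told from these counts. Deviations from the feed means correlated at 0.911, −0.903 and 0.934 for numbers 1, 2 and 3. The sign followed the kind of library, as in the 0.906 between doe-milk library 2 and replacer-milk library 1. In edgeR the fit with the replicate block gave 0 calls and 136 genes at an unadjusted p below 0.05. In the libraries with transcripts, 3 genes passed, against 5 with RLE, 5 with upper quartile scaling, 2 with library totals, 90 with no filter (0.42% of genes) and 143 with DESeq2. TARM1 and CLEC4E were among the last 2 sets (adjusted p = 0.00818 and 0.00386 in edgeR with no filter, 5.4e-05 and 8.3e-05 in DESeq2) and not among the others, where adjusted p ran from 0.190 to 0.445; the cause was not tested. Leaving out a library there left 1 against 1 and no test. In the span-following libraries 16266 genes passed and 12152 to 16653 under the alternatives. Of 224 alternative fold changes of the 8 genes, 12 differed in sign from the reported value, for CD14, CD36, CSF1R and TREM1, 1 of them by scaling alone (TREM1 over 6 libraries, 0.044 with library totals). TARM1 rested on 64 and 56 counts in replacer-milk libraries 2 and 3 and 140 in library 1, which limits the precision of its level there.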
